A study of Mus musculus with 13 samples.

Results

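Epidermal stem cells of the back skin of 2-month-old wild-type mice were profiled by RNA sequencing in 3 libraries, and their levels of keratins, adhesion molecules, transcription factors, receptors, ligands, matrix and metabolic genes are described here. The members are the libraries titled as 2-month wild type, 3 of the 13 of the series. The other groups of the study, 3 libraries of 2-month knockouts, 3 of 1-year wild types and 4 of 1-year knockouts, were not used, and no contrast between groups was made. Wild type means that the gene Fbln7, which encodes the secreted matrix protein fibulin 7 and is deleted in the knockout groups, was intact. The strain is given as C57BI/6. Neither the sex of the animals nor the antibodies of the sort are named. Skin was digested with trypsin and EDTA, cells were isolated by flow cytometry into Trizol, and RNA was sequenced with a low-input stranded total RNA kit. Nothing in the labels says whether a library stands for 1 animal or several, so the spread between libraries may be partly technical.

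Basal keratinocytes are the innermost, dividing layer of the epidermis. They rest on a basement membrane, which they hold through hemidesmosomes and integrins and to which they add laminins and collagens, and they carry a cytoskeleton of keratin filaments built from 1 type I and 1 type II keratin. Cells that leave this layer lose their hold on the basement membrane, switch to other keratins and become the barrier, while the hair follicle is kept by separate stem cells of the bulge.

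All levels below are the authors' TPM, transcript abundances scaled by gene length and by library, and are listed for replicates 1, 2 and 3 in that order. A gene is called expressed where its TPM was at least 1 in each of the 3 libraries, which 9489 of 21337 protein-coding genes reached (44.5%). A TPM of at least 10 in each library was reached by 3150 of the 21337, and one of at least 100 by 234. The libraries held 6071671, 7146483 and 11169320 reads assigned to genes. Protein-coding genes took 20.5, 27.6 and 34.7% of the TPM, the rest going mainly to small structural and ribosomal RNAs, and most coding genes had their highest TPM in replicate 3 (6844 of the 9489, or 72.1%). Where that matters, values rescaled to protein-coding genes, or ratios within a library, are given beside the TPM. The median expressed coding gene differed 1.40-fold between replicates 1 and 2, 1.69-fold between 1 and 3, and 1.31-fold between 2 and 3. After rescaling, these figures were 1.193, 1.214 and 1.249. Replicates 1 and 2 share a token in their table names, and replicate 3 carries another, as well as another balance of sex-linked transcripts. Xist, the RNA that silences an X chromosome, had 8, 9 and 12695 reads, and the Y-linked Ddx3y had 113, 185 and 3. A gene near 1 TPM rested on a median of 12, 14 and 30 reads, and a count of 0 allows up to 0.494, 0.420 and 0.269 CPM (reads scaled by library size alone). These limits cover counting error only. The read totals also count reads left out of the TPM, and ranks by both quantities shared 48 of the top 100 coding genes.

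All 6 markers fixed for basal epidermal cells were expressed, and 3 of them led all coding genes. Krt5 (chromosome 15, 101707070 to 101712898, minus strand, GRCm38), the basal type II keratin, stood at 5481, 6971 and 6518 TPM and ranked first among coding genes by mean. Krt14 (chromosome 11, 100203162 to 100207548, minus strand), its type I partner, reached 4845, 6899.7 and 6390.0 TPM. Krt15 (chromosome 11, 100131758 to 100135928, minus strand), a second basal type I keratin, measured 3370.1, 6393 and 8699.8 TPM. These ranges overlapped, and the 3 genes held the first 3 ranks. Col17a1 (chromosome 19, 47646344 to 47692094, minus strand), the transmembrane collagen of the hemidesmosome, was lower at 699, 1127 and 1059 TPM, with no overlap with the keratins. Trp63 (chromosome 16, 25683763 to 25892102, plus strand), the master factor of stratified epithelium, had 113, 157 and 185 TPM. Itga6 (chromosome 2, 71745616 to 71858416, plus strand), the laminin-binding integrin subunit, had 78.5, 108 and 137 TPM. The libraries of both genes were almost alike once rescaled to coding genes, Trp63 at 551 ± 17.8 and Itga6 at 390.0 ± 6.31 TPM (mean ± SD, n = 3). Of the 6 markers, 5 had a TPM of at least 100 in each library, beside 234 of 21337 coding genes. Ranked by CPM, which is not scaled by length, Krt5, Krt15 and Krt14 held ranks 11, 15 and 17 among coding genes, Col17a1 rank 28, Trp63 rank 47 and Itga6 rank 90. Fbln7 itself (chromosome 2, 128862981 to 128897034, plus strand), deleted in the knockouts, was barely present in these wild types, at 0, 0.302 and 0.831 TPM from 0, 2 and 16 reads.

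Of the 20 coding genes with the highest mean TPM, 8 encode ribosomal proteins, 4 are keratins and 3 are encoded in the mitochondrion. The remaining ones were the translation factors Eef1a1 and Eef2, the growth-associated protein Tpt1, the leucyl-tRNA synthetase Lars2 and Apoe. Apoe, the lipid carrier apolipoprotein E, reached 2584, 3517 and 3386 TPM and ranked 6 among coding genes. Lars2 ran the other way from most genes, at 3388, 2008 and 743 TPM. The share of reads on the 18S ribosomal RNA gene Rn18s-rs5 moved with it (35.6, 26.8 and 4.85%), and its part in the Lars2 values was not tested.

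Below the ribosomal, mitochondrial and keratin genes, the leading coding genes included the annexin Anxa8 at 655, 994 and 1247 TPM, the chaperone Hsp90ab1 at 699, 1152 and 1017 TPM and the galectin Lgals7 at 598, 659 and 1425 TPM. The thioredoxin-binding protein Txnip was higher in replicate 3 than in the others, at 472, 658 and 1520.5 TPM. B2m, the light chain of class I antigen-presenting molecules, measured 648, 647 and 1207 TPM, and H2-K1, a classical heavy chain, 419, 642 and 740.3 TPM. The epithelial Sfn, which encodes the 14-3-3 sigma adaptor, had 243, 323 and 267 TPM, and Trim29 had 263, 359 and 349 TPM. These genes were picked out after their values were seen.

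Keratins made up 8.41, 9.24 and 7.31% of all coding TPM, yet few of them were expressed. Of 52 keratin genes measured, 15 were expressed (28.8%, against 44.5% of coding genes), 33 were under 1 TPM in all 3 libraries, and 16 had no read in any. Of all 21337 coding genes, 10562 were under 1 TPM in all 3 libraries and 4925 had no read in any. The basal trio Krt5, Krt14 and Krt15 alone accounted for 6.68, 7.34 and 6.23%. All mouse keratin genes measured lie in 2 clusters, and in each expressed genes stood next to genes under 1 TPM. Of the 26 on chromosome 11, 6 were expressed, and of the 26 on chromosome 15, 9 were. Krt19 stood at 0, 0.263 and 0.121 TPM, and lies 4.88 kb from Krt15. Krt71, at 0 TPM in each library, lies 21.1 kb from Krt5.

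The sequences just upstream of a few of these genes are shown because a short element near the start was found before both highly expressed keratins and keratins at 0 TPM. Each run is the 60 bases before the RefSeq start (GRCm38.p6, the assembly also called mm10), written 5′ to 3′ on the gene's own strand. TATAAA, or GATAAA, which differs from it in the initial letter, is in capitals. The coordinates are chr15:101712906-101712965 for Krt5, chr15:101954288-101954347 for Krt78, chr11:99389365-99389424 for Krt10, chr11:99322952-99323011 for Krt25, chr15:101743098-101743157 for Krt71 and chr15:101802361-101802420 for Krt73, all on the minus strand.
Krt5: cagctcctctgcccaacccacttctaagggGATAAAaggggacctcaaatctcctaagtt
Krt78: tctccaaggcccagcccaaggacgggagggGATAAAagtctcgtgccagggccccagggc
Krt10: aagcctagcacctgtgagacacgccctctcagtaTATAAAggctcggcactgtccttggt
Krt25: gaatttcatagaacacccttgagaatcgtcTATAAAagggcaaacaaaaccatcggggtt
Krt71: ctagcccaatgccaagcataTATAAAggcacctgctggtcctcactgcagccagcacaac
Krt73: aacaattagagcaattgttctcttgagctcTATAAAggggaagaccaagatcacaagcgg

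The capitals begin 30 bases before the start in Krt5, Krt78, Krt25 and Krt73, 26 before it in Krt10 and 40 before it in Krt71. Krt5 and Krt10 are highly expressed and Krt78 (16.03, 37.6 and 30.6 TPM) moderately so, while the inner root sheath keratins Krt25, Krt71 and Krt73 were at 0 TPM in each library. Of the 52 keratins, 36 had an entry in the RefSeq promoter table and 30 had one within 50 bases of the annotated start. On the gene's strand, the whole of TATAAA lay between 20 and 45 bases upstream in 12 of these 30 promoters, compared with 2.01% of 32851 promoters of all genes. The whole of GATAAA did so in 2 of 30, compared with 0.542%. On either strand of the whole 250 bases, TATAAA was in 15 of 30 keratin promoters and in 12.4% of all promoters. Either of the 2 motifs was in that window in 4 of the 6 promoters of expressed keratins (2 with TATAAA, 2 with GATAAA) and in 10 of the 24 of keratins not expressed (all with TATAAA). Other relatives that differ from TATAAA in the initial letter were not counted. In that window CATAAA stands before Krt13, Krt23, Krt75 and Krt84, and AATAAA before Krt82, all keratins not expressed. The split between expressed and other keratins thus depends on which relatives are counted, and no difference between them is drawn from it. A match describes letters in this window and no more.

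The suprabasal keratins were high as well. Krt10, the type I keratin that replaces Krt14 in spinous cells, had 1499, 2232 and 1334 TPM, and its partner Krt1 had 960.1, 1646 and 861 TPM. The pair kept a steady ratio, Krt1 being 0.674 ± 0.055 of Krt10 (SD, n = 3). Against Krt14, Krt10 was 0.309, 0.323 and 0.209, and the TPM ranges of the 2 genes did not overlap. Krt77, a further suprabasal type II keratin, had 776, 987 and 1180.1 TPM. Its deposited TPM was highest in replicate 3, where that of Krt1 was lowest, but on the coding scale both were lowest there. The other 2 on this list, Krt2 and the footpad keratin Krt9, were under 1 TPM in each library. In bulk RNA, fewer cells of a type and less RNA per cell cannot be told apart, nor can a few suprabasal cells in the sort and suprabasal transcripts within basal cells.

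The balance of the basal type I keratins moved between libraries. Krt15 was 0.696, 0.927 and 1.36 times Krt14, whereas Krt5 stayed at 1.05 ± 0.067 times Krt14. Replicate 3, with the highest Krt15, had the lowest values on the coding scale for all 3 expressed suprabasal keratins and all 5 expressed keratins of the outer root sheath, companion layer and infundibulum, against 3661 of all 9489 expressed coding genes (38.6%).

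Among those 5, Krt17 led with 101, 88.6 and 95.8 TPM. Krt6a measured 30.6, 37.1 and 21.4 TPM and Krt16 35.9, 29.3 and 11.7 TPM; both are keratins of the follicle that wounded epidermis also makes. Krt79, which marks the infundibulum, had 31.2, 15.6 and 12.9 TPM. Krt6b was low at 4.95, 11.2 and 2.21 TPM. Krt75, the companion layer keratin, had 0 reads in each library, and Krt24 passed 1 TPM in replicate 2 only. Krt6a and Krt6b, and Krt14, Krt16 and Krt17, are close in sequence, so reads could be shared within each set.

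Of the keratins of the hair itself, none of 8 inner root sheath members was expressed, and 1 of 15 hair shaft members was. That one, Krt32, was at 5.05, 8.77 and 14.3 TPM from 17, 35 and 134 reads. The inner root sheath genes Krt26, Krt28, Krt71, Krt72 and Krt73 and the hair shaft genes Krt33b, Krt34, Krt35, Krt36 and Krt39 had no read in any library. Simple epithelial keratins were close to the floor, with Krt8 at 1.28, 0 and 0 TPM and Krt18 at 0, 0 and 0.1597 TPM. Of the 13 simple and other epithelial keratins, 3 were expressed. Krt80, a keratin linked to junctions, was the highest at 91.2, 140.3 and 165 TPM, followed without overlap by Krt78 and then by Krt4 at 4.35, 2.28 and 5.35 TPM.

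**Figure D1:**
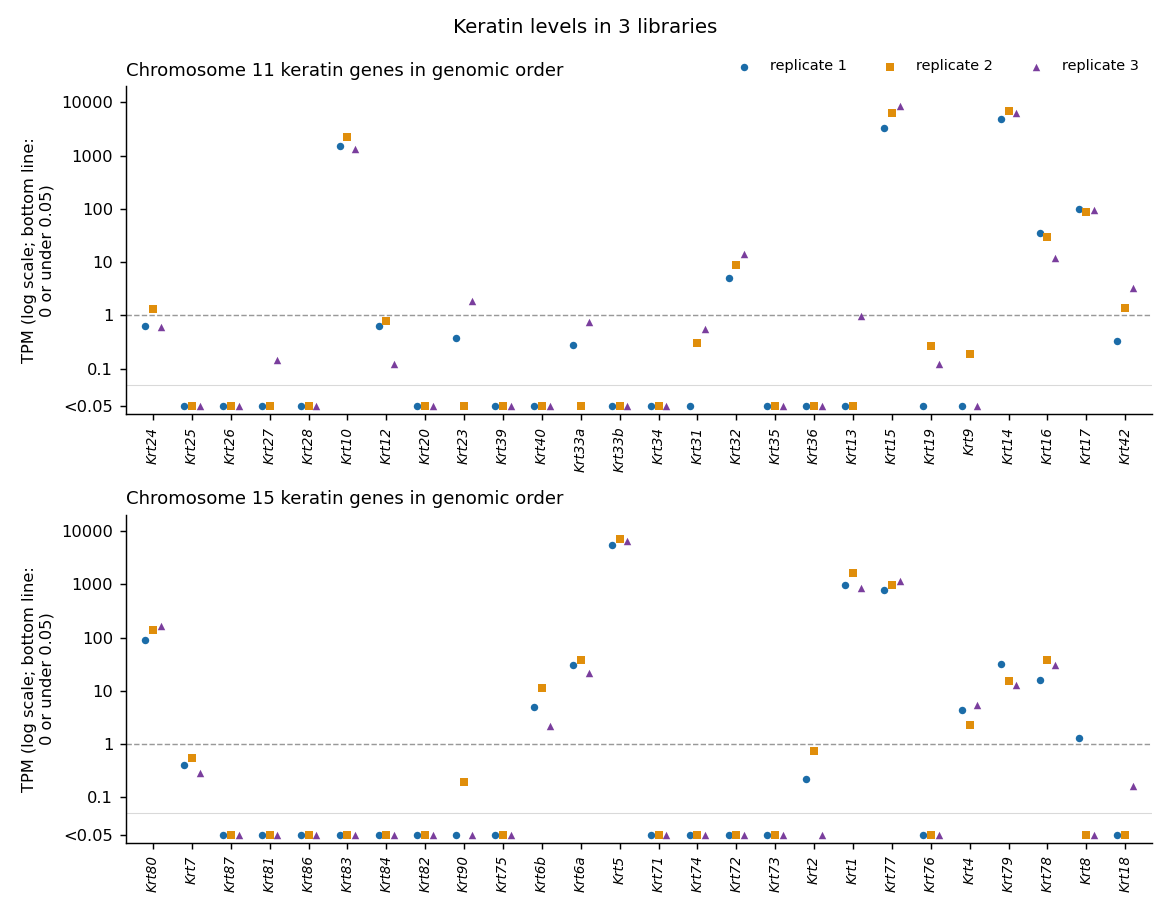
TPM of each measured keratin gene in replicates 1 to 3, in genomic order on chromosome 11 (top) and chromosome 15 (bottom). The vertical axis is logarithmic, the lowest line collects values of 0 or under 0.05, and the dashed line marks 1 TPM; Krt15 and Krt14 on chromosome 11 and Krt5 on chromosome 15 stand highest, with genes at or near 0 beside them.

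Of 101 adhesion genes, 64 were expressed (63.4%, against 44.5% of coding genes). All 6 hemidesmosome genes were expressed, 4 of them at 100 TPM or more in each library, beside 234 of 21337 coding genes. After Col17a1 came the plakins that tie hemidesmosomes to keratin filaments, Dst at 143, 310.4 and 324 TPM and Plec at 164, 272 and 260.3 TPM. Itgb4, the partner of Itga6, had 108, 152 and 192 TPM, and the tetraspanin Cd151 had 23.9, 26.3 and 49.7 TPM. The 2 subunits of the α6β4 integrin kept 1 ratio throughout, Itga6 being 0.724, 0.710 and 0.714 times Itgb4 (0.716 ± 0.00716, SD, n = 3). Col17a1 was 6.45 ± 0.941 times Itgb4.

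Few integrins beyond that pair were present. Of 17 alpha subunits, 4 were expressed: Itga6, the laminin receptor subunit Itga3 at 38.5, 46.1 and 69.4 TPM, Itgav at 13.6, 18.2 and 23.8 TPM, and the collagen receptor subunit Itga2 at 7.43, 7.98 and 15.3 TPM. Their order was separate from Itga6 to Itga3 and from Itga3 to Itgav. Of 8 beta subunits, 3 were expressed: Itgb4, Itgb1 at 48.6, 62.4 and 90.4 TPM and Itgb5 at 9.48, 15.9 and 23.1 TPM, with ranges that did not overlap. Itgb6, which wounded keratinocytes use, measured 1.55, 0.8905 and 1.85 TPM. The fibronectin receptor subunit Itga5 had 0.783, 0.877 and 0.503 TPM, while Itga4, Itga9 and Itgb3 were at 0 TPM in each library. Itga9 nevertheless had 5431, 6467 and 988 total gene reads; the authors' TPM left these reads out, so its level is uncertain.

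Desmosome genes were among the most abundant junction transcripts, with 15 of 18 expressed and 6 at 100 TPM or more in each library. Of all 21337 coding genes, 234 reached that level. Dsp, the plakin that binds keratin to the desmosome, had 669.6, 1170.2 and 909.9 TPM, and the membrane protein Perp had 705, 856 and 1046 TPM. The basal desmocollin Dsc3 measured 313, 430.4 and 466 TPM, above Dsg3, the basal desmoglein, by 4.29 ± 0.655 times. The plakophilin Pkp1 had 214, 332 and 275 TPM and periplakin, Ppl, 171, 364 and 256 TPM. Dsg1a, a desmoglein best known from upper layers, exceeded Dsg3 by 2.05 ± 0.2001 times at 131, 211 and 253 TPM. The TPM ranges of the 2 genes overlapped. The Dsg1 genes are near-identical copies, so their split is uncertain. Desmocollins of the upper layers and other tissues were low, Dsc1 at 4.15, 4.39 and 6.45 TPM and Dsc2 at 1.65, 2.03 and 4.87 TPM. The cardiac plakophilin Pkp2 and the hair desmoglein Dsg4 were not expressed, Dsg4 at 0 TPM in each library.

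Adherens junction genes were expressed in 12 of 15 cases. Cdh1, E-cadherin, had 146, 205 and 218 TPM, and Cdh3, P-cadherin of basal cells, 25.9, 35.6 and 46.9 TPM, or 0.189 ± 0.0232 of Cdh1. Their catenin partners Ctnna1 and Ctnnb1 had 103, 144 and 166 TPM (Ctnna1) and 57.7, 68.9 and 88.7 TPM (Ctnnb1). Mesenchymal Cdh2 and endothelial Cdh5 stayed under 1 TPM in each library. Nectin1 was the leading nectin at 35.4, 51.8 and 51.8 TPM, and Nectin3 was not expressed.

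Among tight and gap junction genes, 12 of 19 were expressed. Cldn1, the claudin of the skin barrier, had 53.4, 77.4 and 152 TPM, and the connexin Gja1 had 52.5, 63.4 and 119.7 TPM. The connexin Gjb5 measured 13.8, 15.3 and 25.1 TPM. Gjb2 and Gjb6, the connexins of keratoderma, were instead under 1 TPM in each library, and Cldn3 had no read. Of the 20 other surface adhesion molecules, 14 were expressed, led by the tetraspanin Cd9 at 143, 146 and 352 TPM, the syndecans Sdc1 at 121, 153 and 167 TPM and Sdc4 at 116, 159.9 and 156 TPM, the laminin receptor Bcam at 59.2, 73.4 and 157 TPM and Ly6a (Sca-1), a surface marker of the interfollicular epidermis, at 52.4, 55.4 and 91.1 TPM. Cd34, which marks bulge stem cells in mouse, had 0 reads in each library.

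**Figure D2:**
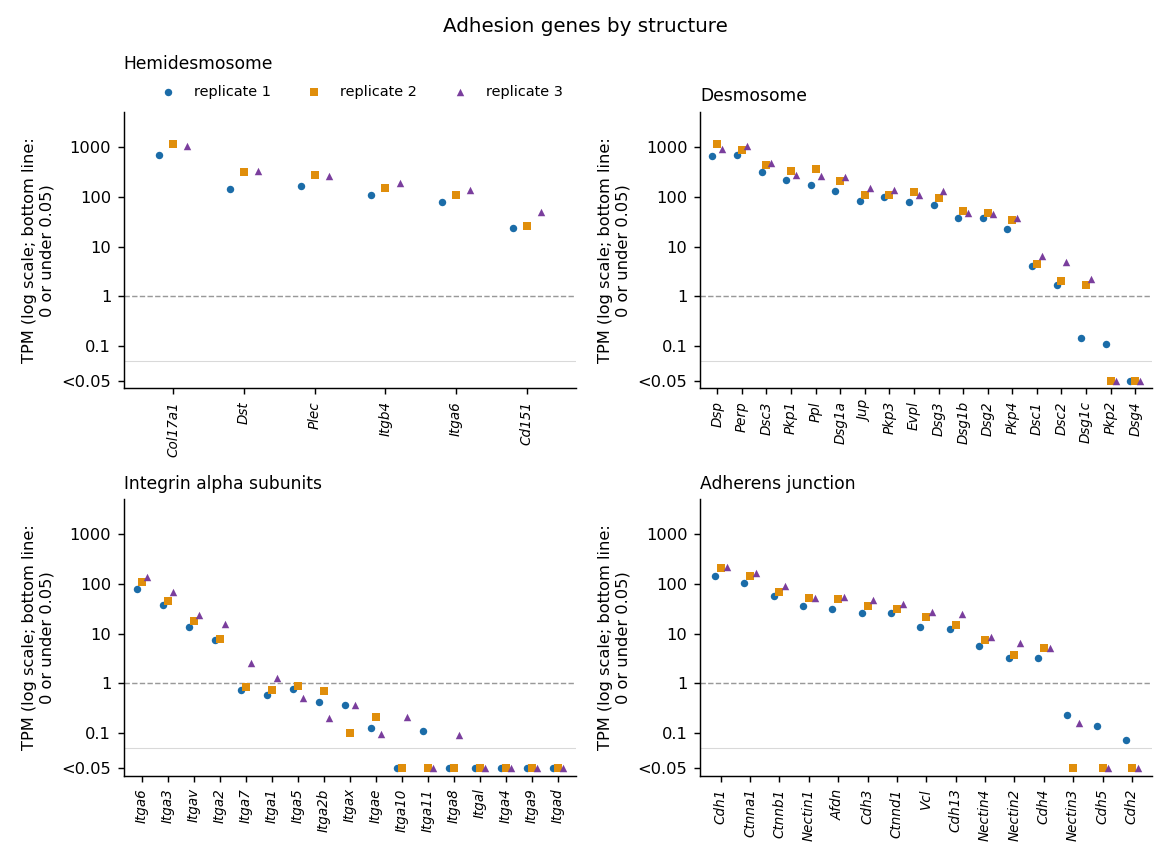
TPM in replicates 1 to 3 of hemidesmosome, desmosome, integrin alpha and adherens junction genes, each panel sorted by mean, on a logarithmic axis with values of 0 or under 0.05 on the lowest line and the dashed line at 1 TPM. Hemidesmosome genes all lie above 1 TPM, while 4 of 17 integrin alpha subunits do so in each library.

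Transcription factors were expressed in 95 of 170 cases (55.9%, against 44.5% of coding genes). Of 35 epidermal factors, 30 were expressed. The Krüppel-like factors led: Klf5, a factor of proliferating epithelium, had 164, 213 and 286 TPM, and Klf4, needed for the barrier, had 196, 249 and 205 TPM. Their ratio changed side between libraries, Klf5 being 0.837, 0.853 and 1.39 times Klf4. Gata3 followed at 130.4, 174 and 179 TPM, its range below that of Klf4, and then Trp63. Cebpa, a brake on keratinocyte division, had 62.01, 68.2 and 108 TPM with a range below that of Trp63. Bcl11b had 48.1, 71.8 and 66.6 TPM and the retinoid partner Rxra 45.2, 61.1 and 78.4 TPM.

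Lower in the same list came Hopx at 54.3, 49.5 and 62.7 TPM and Grhl2, a regulator of epithelial junctions and differentiation, at 23.5, 42.8 and 47.1 TPM. Snai2, known to hold back differentiation in progenitors, had 14.8, 27.1 and 22.01 TPM. The late-differentiation factor Zfp750 was at 11.3, 10.7 and 12.9 TPM, and Grhl3 was at 10.8, 9.95 and 12.7 TPM. The 5 members that were not expressed were Runx1, Elf3, Dlx3, Prdm1 and Elf5. Dlx3 and Prdm1 act in the upper epidermis and stood at 0.222, 0.374 and 0.343 TPM (Dlx3) and 0.106, 0 and 0.122 TPM (Prdm1).

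Of 17 hair follicle factors, 8 were expressed (47.1%, close to the 44.5% of coding genes), at lower levels. Nfib had 23.5, 35.01 and 40.95 TPM and Sox21 23.6, 28.7 and 24.01 TPM, separate from Sox9 at 5.47, 5.18 and 4.49 TPM. Nfatc1, which holds bulge cells quiescent, had 4.37, 4.85 and 4.21 TPM. Follicle factors that were not expressed included Lhx2 at 0.6597, 0 and 0.254 TPM, Tcf7l1 at 0.148, 0.372 and 0.171 TPM, Lef1 at 0, 0 and 0.0509 TPM and Foxi3, which had no read. Gli1, the readout of hedgehog signalling, was at 0.158, 0.266 and 0 TPM.

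The immediate early factors, which dissociation and handling can induce in keratinocytes, were expressed in 16 of 17 cases. Fos measured 173, 173 and 85.5 TPM, Jun 87.2, 135 and 106 TPM, Jund 87.6, 83.8 and 128 TPM and Junb 82.9, 85.3 and 69.7 TPM. Ier2 had 53.7, 52.2 and 84.9 TPM. Fos was lowest in replicate 3 on both the deposited and the coding scale. Jund and Ier2 had their highest deposited TPM in replicate 3, but on the coding scale both were highest in replicate 1. On the coding scale, 10 of the 16 were lowest in replicate 3, beside 38.6% of all expressed coding genes. Fosl1 was the member not expressed, at 0.3396, 0.571 and 0.786 TPM. How much of these levels was present before the tissue was digested was not tested.

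Signalling effectors were expressed in 26 of 32 cases, 14 of them at 10 TPM or more in each library. Of all 21337 coding genes, 3150 reached that level. Hif1a led at 42.1, 75.4 and 102 TPM, above Stat6 at 33.97, 38.4 and 35.7 TPM without overlap. Yap1, the Hippo effector, had 21.9, 29.9 and 39.6 TPM, and Nfkb1 18.9, 29.1 and 33.2 TPM. Among Notch targets Hes1 was present at 9.11, 17.2 and 25.1 TPM, while Hes5 had no read and Hey1 was at 0, 0 and 0.274 TPM. The BMP targets Id1 and Id3 had 5.496, 8.82 and 10.8 TPM (Id1) and 5.502, 3.26 and 5.87 TPM (Id3).

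The Hox genes, which record a cell's position along the body axis, were expressed in 14 of 39 cases and split by cluster. Of Hoxa genes, 5 of 11 were expressed, of Hoxb 6 of 10, of Hoxc 3 of 9, and of Hoxd 0 of 9, where 6 had no read in any library. Hoxa7 was the highest at 19.1, 34.9 and 32.3 TPM, separate from Hoxa5 at 5.25, 13.5 and 12.03 TPM. Hoxb2 had 3.204, 9.27 and 7.83 TPM, Hoxb7 4.88, 7.26 and 7.53 TPM and Hoxc8 4.65, 4.95 and 5.15 TPM. None of the 12 genes of groups 10 to 13, the most posterior, was expressed. Of these, 8 had no read in any library, and the other 4, Hoxa10, Hoxc11, Hoxc13 and Hoxd11, had at most 2 reads over the 3 libraries.

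Factors of other lineages were nearly all below the floor, with 1 of 31 expressed. The exception, Mitf, which has forms outside melanocytes, had 1.497, 3.07 and 3.07 TPM. No reads were counted for Snai1, Atoh1, Pou4f3, Sox2 and Gfi1. Spi1, a myeloid factor, had 1.08, 0 and 0.332 TPM, and Sox10, of melanocytes and glia, 0.214, 0 and 0.0824 TPM.

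**Figure D3:**
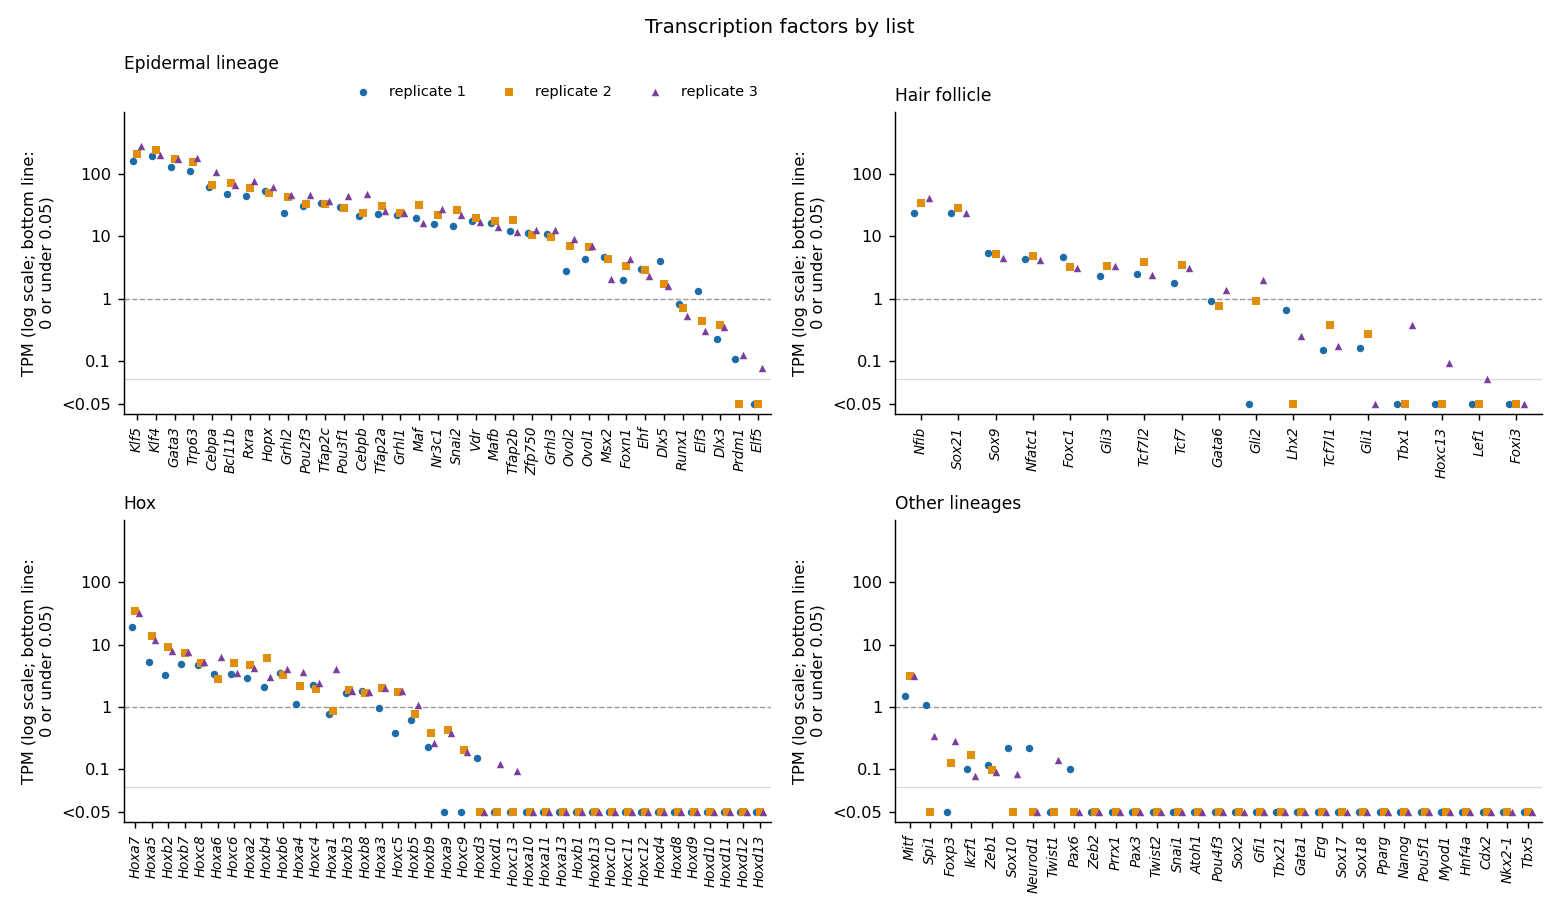
TPM in replicates 1 to 3 of epidermal, hair follicle, Hox and other-lineage transcription factors, less 1 epidermal factor that is not shown, each panel sorted by mean, on a logarithmic axis with values of 0 or under 0.05 on the lowest line and the dashed line at 1 TPM. Most epidermal factors lie above 1 TPM, and of the other-lineage factors Mitf does so in each library.

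Receptors were expressed in 99 of 158 cases (62.7%) and ligands in 66 of 192 (34.4%). The receptor list thus lay above, and the ligand list below, the 44.5% of all coding genes. On the deposited scale replicate 3 was the highest library for most receptors, for example in 15 of 18 expressed receptor kinases and 24 of 30 expressed cytokine and TNF receptors, as it was for 72.1% of all expressed coding genes. On the coding scale it was the highest for 10 of the 18 and 13 of the 30, beside 34.0% of all. Growth factor receptor kinases were expressed in 18 of 32 cases. Fgfr2, whose epithelial form receives fibroblast growth factors from the dermis, led at 111, 201 and 231 TPM. Its total gene reads, 30368, 28767 and 30832, did not follow the depth of the libraries as its TPM did, so its level is less certain. Fgfr3 was 0.292 ± 0.0385 of it at 35.1, 49.8 and 72.2 TPM. Ddr1, a collagen receptor, had 40.1, 51.8 and 71.8 TPM, the Gas6 receptor Axl 26.8, 35.7 and 63.8 TPM, and Erbb2 27.3, 41.4 and 48.5 TPM. Erbb3, a receptor that binds neuregulins, was 1.86 ± 0.349 times Egfr, with 22.2, 38.2 and 56.8 TPM against 15.1, 19.3 and 26.6, and the ranges overlapped. Of the receptors best known from mesenchyme and vessels, Pdgfra, Pdgfrb, Kdr and Tek were at 0 TPM in each library, Tek from 12, 22 and 4 total gene reads. Ddr2, a collagen receptor of mesenchymal cells, was expressed at 2.25, 3.36 and 2.78 TPM. Kit, the melanocyte and mast cell receptor, was at 0.0922, 0 and 0.142 TPM.

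Of 14 Eph receptors, 6 were expressed (42.9%, close to the 44.5% of coding genes). The kinase-dead Ephb6 was highest at 51.5, 65.5 and 102 TPM, then Ephb4 at 24.6, 26.98 and 39.5 TPM, Epha1 at 17.7, 22.4 and 26.4 TPM and Epha2 at 16.6, 19.9 and 26.3 TPM. Of their ligands, Efna1 had 23.1, 36.2 and 61.9 TPM, Efna3 28.3, 29.4 and 36.2 TPM and Efnb2 20.2, 26.9 and 17.4 TPM. Among semaphorins, ephrins and netrins, 16 of 25 were expressed, led by Sema3d at 42.2, 55.7 and 51.2 TPM and Sema3c at 43.2, 44.4 and 53.5 TPM, while Sema3a was at 0, 0 and 0.0161 TPM and Sema7a had no read.

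Notch, Wnt and hedgehog receptors were expressed in 19 of 26 cases. Notch1 measured 24.8, 28.99 and 48.4 TPM and Notch2 13.2, 21.9 and 23.3 TPM, with Notch3 at 7.21, 9.26 and 15.2 TPM and Notch4 not expressed. Their ligands were made in the same libraries: Jag2 at 76.5, 96.1 and 132 TPM, Dll1 at 23.4, 39.02 and 49.3 TPM and Jag1 at 10.9, 16.3 and 21.4 TPM. Jag2 exceeded Jag1 by 6.35 ± 0.572 times. Dll3 had no read, and Dll4 was at 0 TPM in each library. Delta-like ligands on basal cells are known to act on Notch in neighbouring cells.

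Among Wnt receptors Fzd6 had 20.2, 32.99 and 44.5 TPM and Fzd10 22.3, 28.8 and 39.4 TPM, and the co-receptors Lrp4, Lrp5 and Lrp6 had 50.9, 67.01 and 68.8 TPM (Lrp4), 12.3, 19.2 and 22.8 TPM (Lrp5) and 9.600, 14.5 and 17.1 TPM (Lrp6). Lgr6, an R-spondin receptor of interfollicular and upper follicle stem cells, had 14.97, 22.2 and 30.2 TPM, 2.67 ± 0.622 times Lgr4. Lgr5, its counterpart in the bulge, was at 0 TPM in each library, from 2, 4 and 5 total gene reads. Of 19 Wnt ligands 10 were expressed: Wnt10a led at 35.2, 44.6 and 60.4 TPM, with Wnt4 at 29.2, 34.5 and 27.7 TPM, Wnt7b at 20.5, 20.2 and 31.8 TPM and Wnt3 at 20.5, 16.5 and 19.9 TPM. Axin2, a direct Wnt target, had 23.2, 37.7 and 46.1 TPM. Of 23 Wnt and BMP modulators, 6 were expressed, and most secreted ones were not expressed, with 0 reads for Sfrp2, Sfrp4, Dkk1, Dkk2, Dkk4, Rspo1, Rspo2 and Rspo4. Sfrp1 (12.5, 20.5 and 18.7 TPM), follistatin, Fst (9.67, 12.9 and 10.2 TPM), and Rspo3 (3.56, 2.21 and 4.99 TPM) were the secreted members expressed.

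No hedgehog ligand was expressed, Shh and Dhh having no read and Ihh 0 TPM from 0, 0 and 1 total gene reads, while the transducer Smo had 21.5, 30.2 and 28.7 TPM and the receptor Ptch1, itself a target, 2.39, 3.56 and 3.83 TPM. In the TGF-β and BMP families 9 of 14 receptors were expressed, among them Acvr1b at 14.8, 18.98 and 29.1 TPM, Bmpr2 at 15.4, 20.01 and 23.6 TPM and Bmpr1a at 11.2, 13.4 and 22.4 TPM. Tgfbr2 stood at 9.63, 9.16 and 13.4 TPM, above Tgfbr1 at 2.395, 3.13 and 5.95 TPM. Of 20 ligands and related factors 7 were expressed, with the protease Bmp1, which is no BMP ligand, at 13.4, 16.1 and 26.95 TPM, Bmp4 at 9.38, 15.5 and 11.8 TPM, Tgfb1 at 6.17, 7.69 and 16.3 TPM and Bmp7 at 8.22, 8.48 and 9.400 TPM. Activin A, Inhba, was at 0 TPM in each library.

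In the EGF family 2 of 11 ligands were expressed, Epgn at 13.2, 8.09 and 7.299 TPM and Nrg2 at 3.76, 6.48 and 6.97 TPM. Areg reached 1 TPM in replicate 3 alone at 0.954, 0.802 and 2.02 TPM, and Tgfa (0.893, 0.525 and 0.689 TPM) and Hbegf (0.244, 0.616 and 0.377 TPM) did not in any library. No fibroblast growth factor gene was expressed by the rule. Fgf7 and Fgf10, the dermal ligands of Fgfr2, were at 0, 0.2999 and 0.138 TPM (Fgf7) and 0 TPM in each library (Fgf10), whereas Fgfbp1, a secreted carrier of these factors, was the list's 1 expressed member at 66.1, 56.8 and 65.5 TPM. Hgf, the ligand of Met (20.98, 19.8 and 26.3 TPM), and Igf1 and Igf2, the ligands of Igf1r (7.51, 12.2 and 11.7 TPM), were at 0 TPM in each library.

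Of 30 other growth and trophic factors, 15 were expressed (50%, beside 44.5% of coding genes). Gas6, the ligand of Axl, was the highest of them at 82.3, 129 and 143 TPM. Pros1 had 16.2, 22.5 and 21.2 TPM and pleiotrophin, Ptn, 23.97, 33.1 and 25.7 TPM. Il34, which keeps Langerhans cells alive through Csf1r, had 15.7, 17.4 and 32.6 TPM, and Csf1r itself had 0.356, 0.897 and 0.778 TPM. Pdgfa, a signal to the dermis, had 15.98, 23.4 and 16.9 TPM. Kitl passed 1 TPM in replicates 2 and 3, at 0.603, 1.18 and 1.63 TPM.

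Cytokine and TNF receptors were among the fuller lists, 30 of 38 expressed, while cytokines and chemokines were expressed in 6 of 33 cases. Ifngr1, the interferon-γ receptor chain, had 106, 171 and 235 TPM, yet Ifng had no read. Il20ra had 50.1, 75.03 and 98.7 TPM and Il20rb 37.8, 53.7 and 64.4 TPM, a ratio of 0.707 ± 0.051, while Il20 and Il24 had no read. Il6ra measured 23.7, 38.3 and 38.4 TPM and Il6 had no read, and Il17rc measured 27.3, 31.7 and 63.1 TPM and Il17a had no read. The decoy receptor Il1r2 had 46.8, 78.1 and 135 TPM and exceeded the signalling receptor Il1r1 at 12.1, 14.1 and 14.6 TPM. Tnfrsf19 (Troy) had 70.3, 58.4 and 57.7 TPM. Il31ra was 1 gene whose level could not be read, with 148784, 280758 and 23168 total gene reads but 0.316, 0.266 and 0 TPM.

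The highest of the cytokines and chemokines was Ccl27a, the skin-homing chemokine, with 100.2, 91.8 and 269 TPM, and its total gene reads were 424, 466 and 2941. The antagonist Il1rn had 31.97, 24.7 and 26.4 TPM, Cxcl16 25.7, 27.1 and 23.5 TPM, Cxcl14 27.7, 28.9 and 15.5 TPM and the alarmin Il33 11.2, 11.8 and 13.1 TPM. Ccl27a was highest and Cxcl14 lowest in replicate 3. Inflammatory members were near or at the floor, Tnf at 0.354, 0 and 0.546 TPM, Il1b at 0.304, 0.511 and 0.352 TPM and Il1a at 0, 0 and 0.113 TPM. Il36a was not analysed here.

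Among innate sensors and other receptors, 17 of 34 were expressed (50%, beside 44.5% of coding genes). Rarg, the retinoic acid receptor typical of epidermis, had 52.5, 68.04 and 78.9 TPM, the protease-activated receptor F2rl1 25.05, 26.9 and 46.9 TPM and the dioxin receptor Ahr 15.6, 24.8 and 33.8 TPM. Nod1, a sensor of bacterial cell wall, had 11.5, 17.9 and 19.5 TPM. Toll-like receptors were low: Tlr3 had 1.11, 1.403 and 3.35 TPM, Tlr2 0.192, 0.162 and 0.519 TPM, Tlr4 0 TPM in each library, and no reads were counted for Tlr1 and Tlr6. The oestrogen receptors Esr1 and Esr2 were not expressed.

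**Figure D4:**
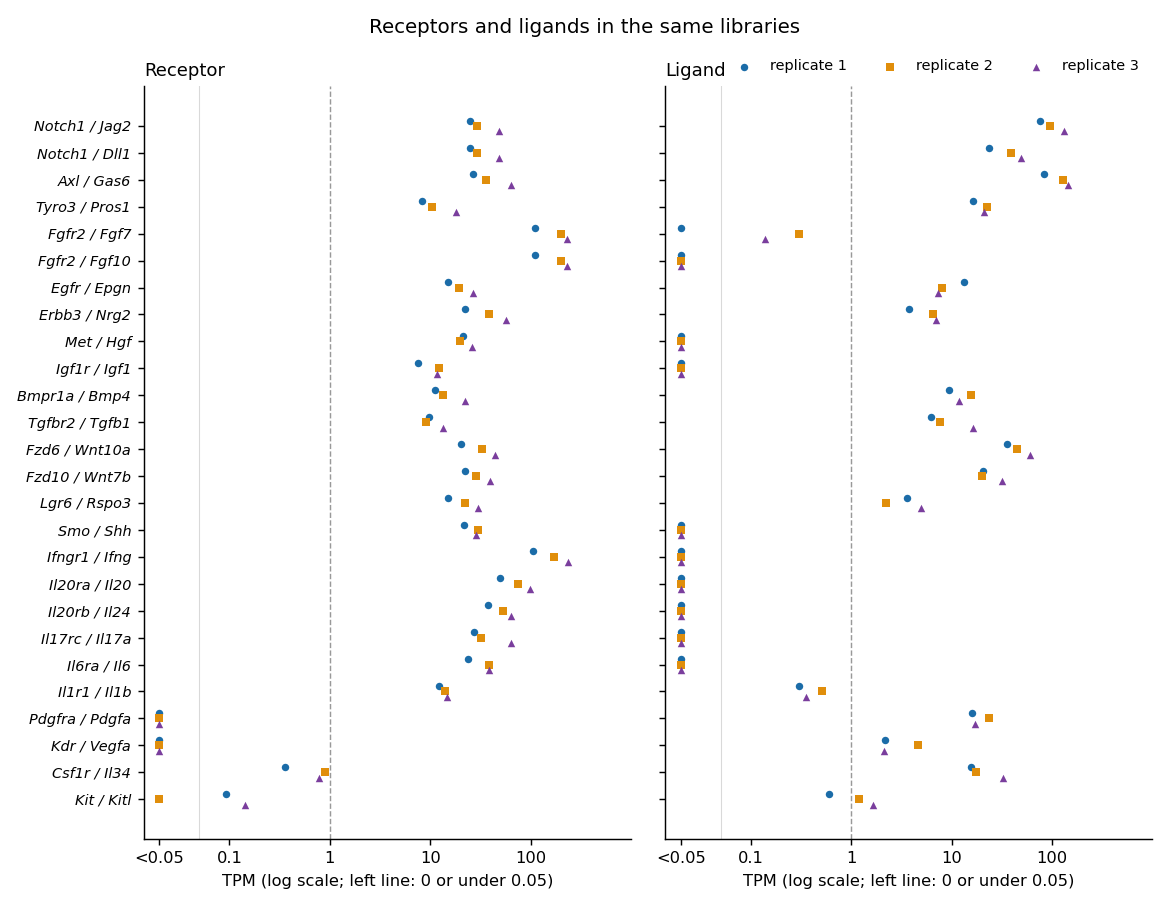
TPM in replicates 1 to 3 of 26 receptor and ligand pairs named receptor / ligand, with receptors left and ligands right on logarithmic axes; values of 0 or under 0.05 lie on the left line and the dashed line marks 1 TPM. Jag2 and Gas6 stand beside their receptors, whereas Hgf, Igf1, Shh, Ifng, Il20, Il24, Il17a and Il6 lie on the left line in each library and Pdgfra and Kdr lie there among the receptors.

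Matrix genes were expressed in 61 of 139 cases (43.9%), close to the 44.5% of all coding genes, and the sublists ran from 15% (fibrillar and interstitial collagens) to 72.7% (laminins). Of 11 laminin chains, 8 were expressed. The highest were 2 chains of the laminin bound by the α6β4 integrin, Lamb3 at 61.3, 79.7 and 123 TPM and Lama3 at 35.3, 52.7 and 48.2 TPM. They were not at equal level, Lama3 being 0.577, 0.662 and 0.392 times Lamb3. Lama5 and Lamc1, chains of a second epidermal laminin, had 11.9, 14.8 and 22.4 TPM (Lama5) and 7.57, 11.9 and 12.2 TPM (Lamc1). The muscle chain Lama2 was at 0, 0 and 0.0137 TPM.

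Of 10 basement membrane and anchoring fibril collagens, 7 were expressed. Col7a1, the anchoring fibril collagen, had 24.2, 42.99 and 37.7 TPM. Col4a6 and Col4a5, the chains of the epidermal collagen IV network, had 12.2, 17.8 and 18.3 TPM (Col4a6) and 8.11, 8.77 and 14.3 TPM (Col4a5), and Col4a1 and Col4a2 had 7.26, 11.9 and 10.6 TPM (Col4a1) and 11.3, 16.3 and 18.2 TPM (Col4a2). The kidney chains Col4a3 and Col4a4 were under 1 TPM in each library. Col18a1 was lower in replicate 3, at 16.8, 26.9 and 8.95 TPM. Fibrillar and interstitial collagens were expressed in 3 of 20 cases. Col16a1 was the exception in level at 55.1, 99.2 and 95.3 TPM, followed by Col6a1 at 4.102, 4.89 and 3.52 TPM and Col12a1 at 3.39, 4.99 and 2.55 TPM. The main dermal collagens Col1a1, Col1a2 and Col3a1 had 0.177, 0.0742 and 0 TPM (Col1a1), 0, 0.0803 and 0.0368 TPM (Col1a2) and 0.05905, 0 and 0 TPM (Col3a1).

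Basement membrane glycoproteins were expressed in 9 of 16 cases. Smoc2 led at 109, 128 and 207 TPM, then the proteoglycan agrin, Agrn, at 40.1, 51.6 and 71.1 TPM, and Ecm1 at 15.9, 28.8 and 37.4 TPM. Frem2, of the Fraser complex, had 8.18, 11.3 and 10.5 TPM, while its partner Fras1 was at 0.0327, 0 and 0.139 TPM. Egfl6, made by upper bulge cells, had 3.43, 8.65 and 12.6 TPM. Perlecan, Hspg2, had 4.86, 5.89 and 7.16 TPM. The nidogens that link laminin with collagen IV were not expressed, with Nid1 at 0, 0 and 0.03698 TPM and Nid2 at 0 TPM in each library.

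The fibulin and elastic fibre list, to which Fbln7 belongs, was mostly under 1 TPM, with 4 of 24 expressed. Efemp1, fibulin 3, was the highest at 28.5, 35.6 and 102 TPM, and replicate 3 stood apart from the others in it. The latent TGF-β binding proteins Ltbp4 and Ltbp3 had 22.3, 31.7 and 65.2 TPM (Ltbp4) and 9.94, 15.4 and 17.2 TPM (Ltbp3). Hmcn1 had 1.81, 2.92 and 2.96 TPM. Fbln1 passed 1 TPM in replicate 1 only, at 1.19, 0.335 and 0.819 TPM. Fbln5, Lox, Mfap4 and Mfap5 had no read in any library, and elastin, Eln, was at 0 TPM in each.

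Of 23 provisional matrix, matricellular and proteoglycan genes, 13 were expressed. Tgfbi, a secreted integrin-binding protein, stood far above the rest at 310.4, 399 and 553 TPM, or 0.440 ± 0.0843 of Col17a1. Tnxb had 51.7, 85.6 and 134 TPM, Thbs2 48.2, 56.9 and 91.1 TPM and the glypican Gpc1 32.6, 32.4 and 40.7 TPM. The Yap target Cyr61 (Ccn1) had 24.4, 18.8 and 18.9 TPM, and fibronectin, Fn1, 8.23, 8.63 and 9.795 TPM. Lum, Vtn and Nov had no read. Of 35 matrix proteases and inhibitors, 17 were expressed (48.6%, beside 44.5% of coding genes). Serpinb5 (maspin) was at 75.2, 75.1 and 149 TPM, Adamts1 at 14.3, 30.04 and 57.7 TPM, the collagen chaperone Serpinh1 at 21.8, 23.5 and 27.5 TPM and the membrane protease Mmp14 at 19.3, 23.2 and 22.8 TPM. The wound proteases Mmp10 and Mmp13 had no read, and Mmp9 was at 0.328, 0.275 and 1.01 TPM.

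Metabolic genes were expressed in 134 of 178 cases (75.3%, against 44.5% of coding genes). All 13 mitochondrially encoded respiratory subunits were at 100 TPM or more in each library, from mt-Atp6 at 3327, 4832 and 4453 TPM to mt-Nd3 at 118, 125 and 265 TPM. They summed to 5.31, 4.96 and 5.66% of coding TPM. Of 28 genes of pyruvate oxidation and the citric acid cycle, 25 were expressed, led by citrate synthase, Cs, at 44.3, 56.7 and 81.03 TPM, and by Mdh2 at 32.2, 52.1 and 67.7 TPM and Idh2 at 28.2, 34.1 and 62.7 TPM. The testis form Pdha2 had no read. Replicate 3 had the highest TPM for all 25, beside 72.1% of all expressed coding genes, and on the coding scale for 13 of the 25, beside 34.0%.

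Glycolysis was expressed in 18 of 31 cases. At several steps 1 isoform led. Aldoa had 57.8, 87.9 and 92.2 TPM and Pkm 49.4, 80.4 and 88.5 TPM, while Pklr and Pgk2 had no read in any library. The glucose transporter Slc2a1 had 37.9, 53.6 and 75.7 TPM, against Slc2a3 at 0.3200, 0.336 and 0.309 TPM and Slc2a4 at 0, 0.4201 and 0.514 TPM. Hexokinase was Hk1 at 14.6, 16.6 and 17.8 TPM, with Hk2 at 0.486, 1.55 and 0.824 TPM. Ldha exceeded Ldhb by 5.55 ± 0.766 times, at 41.5, 54.6 and 67.7 TPM. The lactate exporters Slc16a3 and Slc16a1 were low, at 1.53, 2.02 and 2.44 TPM (Slc16a3) and 0.917, 0.4402 and 0.505 TPM (Slc16a1). Gapdh was listed at only 12.4, 19.4 and 25.2 TPM, 0.236 ± 0.0322 of Aldoa. It has many processed pseudogenes that could share its reads, and this value is uncertain.

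Lipid genes were broadly present. Of 23 cholesterol genes, 21 were expressed, with the synthase Hmgcs1 at 57.01, 72.2 and 108 TPM and the regulator Srebf2 at 24.6, 35.5 and 31.99 TPM. Of 26 fatty acid genes, 20 were expressed, including the oxidation enzymes Acadl at 31.2, 44.2 and 70.2 TPM and Hadha at 31.9, 42.8 and 70.5 TPM, the desaturase Scd1 at 36.4, 37.1 and 45.3 TPM and fatty acid synthase, Fasn, at 19.3, 24.6 and 35.8 TPM. The transporter Cd36 was at 0.484, 0 and 0 TPM.

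Of 18 genes of serine, one-carbon and amino acid metabolism, 14 were expressed. Glutamine synthetase, Glul, led at 106, 198 and 281 TPM, the amino acid carrier Slc38a2 had 38.6, 59.3 and 107 TPM, and the serine pathway enzyme Phgdh had 24.2, 40.8 and 50.3 TPM. The cystine carrier Slc7a11 was at 0, 0.04105 and 0.0565 TPM and the glutamine carrier Slc1a5 at 0.139, 0.117 and 0.643 TPM. Antioxidant genes were expressed in 21 of 25 cases. Gpx1 measured 129.8, 134 and 311 TPM, and the metallothioneins Mt2 and Mt1 had 121, 113 and 290.1 TPM (Mt2) and 107, 107 and 191 TPM (Mt1). In these 3, replicate 3 had the highest deposited TPM, as in 19 of the 21 expressed antioxidant genes and 72.1% of expressed coding genes. On the coding scale it was highest for 12 of the 21, beside 34.0% of all. Gpx2 had no read. Retinoid metabolism was the sparsest of the metabolic lists, with 2 of 14 expressed, Dhrs3 at 15.6, 19.8 and 17.9 TPM and the binding protein Crabp2 at 1.32, 1.11 and 3.38 TPM. The retinoic acid-making enzymes Aldh1a1, Aldh1a2 and Aldh1a3 were under 1 TPM in each library, and Lrat and Cyp26a1 had no read.

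Cell cycle genes were expressed in 16 of 18 cases. Ccnd2 was the main D cyclin at 96.2, 109.9 and 203 TPM, 4.71 ± 0.757 times Ccnd1. The S phase genes Pcna and Mcm2 had 24.6, 38.8 and 53.7 TPM (Pcna) and 25.7, 37.2 and 40.5 TPM (Mcm2). Mki67, a marker of cycling cells, had 39.9, 56.98 and 25.5 TPM, so that it was 1.62, 1.47 and 0.474 times Pcna. The inhibitors Cdkn1b and Cdkn1a had 16.7, 18.5 and 33.7 TPM (Cdkn1b) and 10.4, 14.2 and 30.97 TPM (Cdkn1a), and the senescence-linked Cdkn2a was at 0 TPM in each library. Of 4 genes tied to fast and slow cycling epidermal stem cells, 3 were expressed: Col17a1, with its values above, Aspm, at 5.05, 6.51 and 2.47 TPM, and Slc1a3. Slc1a3, a marker of the fast population, had 2.04, 1.83 and 2.17 TPM, and Dlx1, a marker of the slow one, was the member not expressed, with no read.

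Markers of other skin cells were expressed in 21 of 116 cases (18.1%, against 44.5% of coding genes). In the cornified and granular list 8 of 21 were expressed, with a summed level of 265, 314 and 397 TPM. Krtdap had 146, 141 and 251 TPM, Sbsn 60.9, 101 and 61.4 TPM, Casp14 21.9, 30.5 and 26.2 TPM and Spink5 16.8, 21.7 and 36.2 TPM. The envelope precursor involucrin, Ivl, had 3.92, 4.05 and 4.304 TPM, and the transglutaminase Tgm3 5.75, 9.19 and 7.84 TPM. Among the members not expressed were loricrin, Lor, at 0.652, 0.548 and 0.251 TPM, filaggrin, Flg, at 0.2799, 0.302 and 0.0925 TPM and Tgm1 at 0.193, 0.486 and 0.297 TPM, and Lce3c had no read. Of 8 bulge and hair germ markers, 3 were expressed, Postn at 21.05, 23.3 and 17.1 TPM, Sox9 and Nfatc1, while Cd34 had no read and Lgr5 was at 0 TPM. That list summed to 31.5, 33.3 and 26.6 TPM.

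Langerhans and myeloid markers were expressed in 6 of 10 cases, with a summed level of 100.5, 84.7 and 155.6 TPM. Epcam, which some keratinocytes also make, took 35.8, 39.6 and 53.9 TPM. Cd74, the class II invariant chain, had 28.8, 14.9 and 38.1 TPM, H2-Ab1 15.9, 10.1 and 25.4 TPM and H2-Eb1 10.8, 11.1 and 21.9 TPM. Cd207 (langerin), the defining gene of Langerhans cells, had 1.52, 2.56 and 3.53 TPM from 4, 8 and 26 reads. It was thus present in each library at a low level, and the part of such cells in the class II values was not tested. T cell markers were at or near 0, Cd3e at 0, 0 and 0.0548 TPM and Cd8a and Cd4 with no read, except Thy1 at 7.82, 15.4 and 2.29 TPM. Melanocyte genes other than Mitf, fibroblast genes other than Vim (5.43, 3.52 and 6.85 TPM) and glial genes other than Mbp (4.14, 6.32 and 7.56 TPM) were under 1 TPM in each library. No member of the sebocyte, endothelial and mural, Merkel cell, erythroid, muscle or adipocyte lists was expressed. Of these 6 lists, 5 members reached 1 TPM in some library: the erythroid Hba-a2 at 0.869, 0 and 4.69 TPM, Mgst1 of the sebocyte list at 1.44, 0.484 and 2.22 TPM, Acta2 of the mural cells at 0.651, 1.64 and 0.126 TPM, Krt8 of the Merkel cell list at 1.28, 0 and 0 TPM and the muscle gene Mylpf at 0, 0 and 1.26 TPM. The endothelial Pecam1 had 0, 0.113 and 0.104 TPM, although its total gene reads were 246, 126 and 49. Among the defining genes, Adipoq, Acta1, Atoh1, Hbb-bs and Tie1 had no read.

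**Figure D5:**
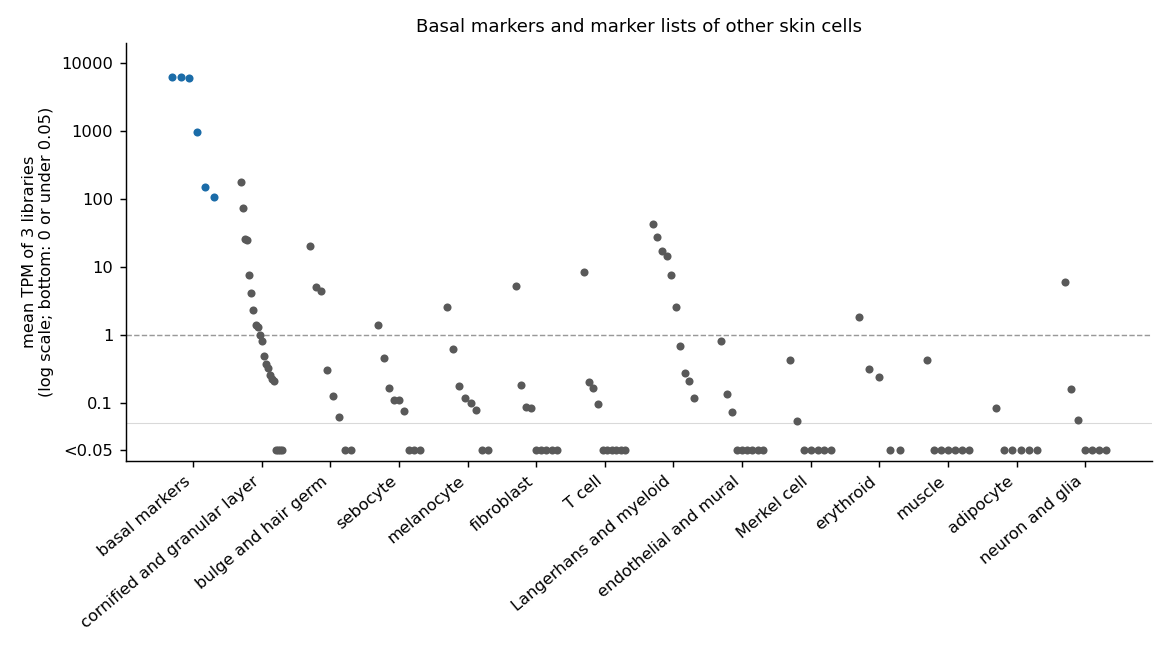
Mean TPM over the 3 libraries of the 6 basal markers (blue) and of marker genes of 13 other lists (grey), 1 point per gene, on a logarithmic axis with values of 0 or under 0.05 on the lowest line and the dashed line at 1 TPM. The basal markers lie above 100 TPM, and the sebocyte, endothelial, Merkel cell, muscle and adipocyte points lie mostly under 1 TPM.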

How the data were processed

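RNA of 3 libraries of sorted epidermal stem cells, 2-month wild type, was used. Per the file headers, each deposited table gives for each gene a TPM, an RPKM and a count of total gene reads. TPM and RPKM were made by the authors and are proportional within a library, and TPM was used for all levels. The deposited total gene read counts, which include reads not entering TPM, gave depth and a check of ranks. The genome build is mm10, per the submitters' processing notes; the aligner, the counter and the use of strand are not given in the sources used here, so antisense and overlapping genes cannot be told apart. The tables list 49585 genes, of which 47147 were matched by symbol to GENCODE M21 (GRCm38) and 21337 are protein-coding. Krt85, Itgam and Il36a were not analysed here, and some list members enter the counts but are not reported by name.

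With 1 group no test between groups was made; differences between genes are given by overlap of the 3 libraries' ranges, or as within-library ratios with SD. Expressed means a deposited TPM of at least 1 in each library. The members and lists were chosen with earlier results of these data known. Named genes are the 6 markers, Fbln7, the 20 highest coding genes, the 5 highest of each list (3 in lists under 6) and up to 5 with 0 reads; genes named for their role beyond these were chosen after their values were seen. Promoters come from RefSeq (GRCm38.p6). A chi-square over genes was used only to see whether 1 library had been deposited more than once. No pair held the same counts (28.7 to 156 for each degree of freedom). The counting rule was tried on simulated levels far from the floor, which says nothing of genes near 1 TPM. Alternatives were other TPM floors, a filter of 10 reads, rescaled TPM, CPM and leaving out each library. Python 3.11.15, pandas 2.3.3, numpy 2.4.6 and matplotlib 3.10.9 were used.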

Additional observations from a re-analysis of the deposited data

How the results depend on the processing

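With a TPM floor of 5 in place of 1, the count of expressed genes of all kinds was 5963 in place of 10483, that of transcription factors 62 in place of 95, ligands 42 in place of 66, cell cycle and stem cell state genes 10 in place of 18, and markers of other cells 11 in place of 21. The other counts of expressed members stayed within 1.5 times under the alternatives run. The median over expressed genes of the highest over the lowest TPM of the 3 libraries was 1.82. It was 1.502 after leaving out ribosomal RNA and mitochondrial genes, 1.39 after rescaling to protein-coding genes (an alternative chosen after seeing the data) and 2.34 with CPM of total gene reads. Leaving out 1 library gave 1.32 to 1.70, the lowest without replicate 1 and the highest without replicate 2. Of 318 named genes, 248 moved in rank by more than the spread between libraries when ranked by CPM. Depth limits the genes near 1 TPM, and a TPM of 0 does not show that a gene is silent. No paired analysis was possible because 1 group was described and no result comes from a test.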

Other observations

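Some genes not on any list carried many reads without a matching TPM. Celf2 had 4771, 5881 and 18602 reads with 0.0896, 0.132 and 0.285 TPM, and Dnah7b had 23700, 8287 and 10828 reads with 0.0290, 0 and 0 TPM. Across protein-coding genes, 4925 had no read in any of the 3 libraries.

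Other genes outside the lists also ranked high. Fcgbp, a mucin-like secreted protein, had 553, 569 and 1002 TPM, and Clca3a2 had 493, 640.4 and 972 TPM. Ly6d had 273, 255 and 412 TPM and the autophagy-linked Dapl1 219, 261 and 284 TPM. The linker histone Hist1h1e, whose mRNA normally lacks a poly(A) tail, had 587, 673 and 591 TPM.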
